A study of Mus musculus with 4 samples.

Results

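The Wnt ligands, their Frizzled receptors and co-receptors, and a set of intracellular effectors and target genes were followed in semilunar valve leaflets of newborn mice that lack Cxcr7 (Ackr3), an atypical receptor that takes up the chemokine CXCL12. The question of the series was the valve phenotype of these mice. The members were every gene with a Wnt or Fzd number symbol, plus 18 named partners (Lrp5, Lrp6, Ror1, Ror2, Ryk, Axin1, Axin2, Ctnnb1, Lef1, Tcf7, Tcf7l1, Tcf7l2, Nkd1, Nkd2, Rspo1, Rspo2, Rspo3 and Lgr4). That gave 47 genes, of which 46 were matched to a probe set with a single gene symbol, out of 18193 genes so matched on the array; Tcf7 was not analysed here. Each gene was read from its probe set with the highest mean log2 value over the 4 arrays. A probe set is a group of short probes against 1 or more transcripts.

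The Cxcr7-/- group comprised 2 arrays, each of RNA pooled from 3 mutant neonates, with 4 to 6 aortic and pulmonary leaflets per animal. The Control group comprised 2 arrays, each of RNA pooled from 3 wildtype littermates, with 6 leaflets per animal. Both groups received the same handling, with 50 ng of total RNA taken through 2 cycles of amplification and no treatment named. The design of the allele, the strain and the sex of the neonates were not given in the sources used here, and pooling hides the spread between animals. The labels call the pools biological replicates. Only 2 arrays per genotype limit the precision, and p-values measure the spread between these pools.

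Wnt proteins are secreted lipid-modified ligands that bind Frizzled receptors on nearby cells. With the co-receptors Lrp5 or Lrp6, they stop the Axin scaffold from having beta-catenin (Ctnnb1) degraded, and beta-catenin then acts with TCF/LEF factors on target genes such as Axin2. Other ligands, Wnt5a among them, act through Ror and Ryk receptors on cell shape and migration without beta-catenin. In the heart the pathway is known from endocardial cushion growth and from remodelling of the cushions into thin leaflets, and R-spondins amplify it by keeping Frizzled receptors at the cell surface.

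The targeted gene, listed as Ackr3, read 28.3 and 328 in Cxcr7-/- pools, against 4936 and 5698 in Control pools, in MAS5 signal, Affymetrix's background-subtracted summary of a probe set on a linear scale. All 14 listed valve interstitial markers and all 16 listed endothelial markers were above the filter on dim probe sets, which kept those with a mean log2 value over the median of all. The arrays correlated with each other at r = 0.922 to 0.956 across the 22518 probe sets kept. Control replicate 1 correlated more with Cxcr7-/- replicate 2 (r = 0.953) than with Control replicate 2 (r = 0.931). Control replicate 2 stood farthest from the others on the first principal component (64.9, against -36.4, -34.9 and 6.42). The 14 valve interstitial markers summed to 354874 and 369500 in Cxcr7-/- pools, against 383414 and 265657 in Control pools. These sums overlapped, with Control replicate 2 the lowest, and singly 8 markers had a positive and 6 a negative log2 fold change. Summed signals of other cell types' markers moved with genotype. All 20 listed cardiomyocyte markers were above the filter, and they summed to 106926 and 158956 in Cxcr7-/- pools, against 195331 and 286108 in Control pools. The 16 endothelial markers summed to 20765 and 19978 in Cxcr7-/- pools, against 26105 and 32768 in Control pools. Singly, 13 had a negative and 3 a positive log2 fold change (Cxcr7-/- minus Control). Of 17 macrophage markers, all above the filter, the sums were 24563 and 21588 in Cxcr7-/- pools, against 15333 and 13058 in Control pools. Of 11 lung epithelial markers, 7 above the filter, they were 1698 and 2160.0 in Cxcr7-/- pools, against 5048 and 9941 in Control pools. Most of the Control sums came from Scgb3a2, which read 1067 and 696 in Cxcr7-/- pools, against 3190 and 6476 in Control pools. Of the 7, 6 had a negative and 1 (Epcam) a positive log2 fold change. Of 11 smooth muscle markers, 9 above the filter, the sums were 21512 and 25730.0 in Cxcr7-/- pools, against 31290.0 and 38770.0 in Control pools. Of the 9, 8 had a negative and 1 (Itga8) a positive log2 fold change. Of 12 Schwann and neuronal markers, 9 were matched to a probe set and 6 lay above the filter. The sums were 2975 and 2448 in Cxcr7-/- pools, against 1839 and 1725 in Control pools. Sox10 and S100b had log2 fold changes of 0.12 and -0.11, while Gap43, Stmn2, Tubb3 and Prph ran from 0.40 to 1.77. Of 20 listed cell cycle genes, 19 were matched to a probe set, all above the filter. They summed to 60102 and 56932 in Cxcr7-/- pools, against 36258 and 41029 in Control pools. All 19 had a positive log2 fold change, as had 5669 of all 11260 genes kept. The part of these markers and cell cycle genes in the results on Wnt genes was not tested. In such pooled tissue, fewer cells of a type and less RNA per cell cannot be told apart.

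No member passed the test of limma, a linear model with variances moderated across probe sets, adjusted over all probe sets (threshold 0.05). The share called over all 22518 probe sets was also 0%, with a smallest adjusted p of 0.400. The targeted gene Ackr3 did not pass either, at a log2 fold change of -5.33 (limma adjusted p = 0.400). Failing this test therefore does not show that a gene was unchanged. The signal differences below are values and not changes. Of the 46 members, 32 lay above the filter and were tested. Among these, 16 had a positive and 16 a negative log2 fold change (Cxcr7-/- minus Control, on log2(signal + 22)). Their median was 0.00, as over all 11260 genes kept (0.00), and the median absolute log2 fold change was 0.34, against 0.27 over all genes kept. Centring each array on its median added 0.14 to every log2 fold change, and 8 members, beside 8.03% of all genes kept, then had an unadjusted p under 0.05: Fzd6 and Wnt4 no longer did, while Wnt2, Wnt5a and Wnt9b did.

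At an unadjusted limma p under 0.05 there were 7 of 32 members (21.9%), where 7.96% of all genes kept had such a p. Wnt7a, Wnt5b, Rspo3 and Ror2 were higher, as 3.93% of all genes were, and Wnt4, Fzd5 and Fzd6 were lower, as 4.03% were. Ror2 was higher in its chosen probe set only, and its other probe set above the filter was lower (-1.13). No sign of these 7 members changed with 1 pool left out (Fzd5 from -1.02 to -0.98, Wnt4 from -1.21 to -0.49). Such fits take their spread from the pools of the other genotype alone. The count at such a p therefore does not show what a single pool contributed. It was 0 without Cxcr7-/- replicate 1, where 2.62% of all genes had such a p, and 3 without Cxcr7-/- replicate 2 (4.57%). It was 9 without Control replicate 1 (20.1% of all genes) and 5 without Control replicate 2 (8.76%). The pools of the genotypes did not overlap for 18 of 32 members (56.2%), 11 higher and 7 lower in the Cxcr7-/- pools. The same held for 40.2% of all genes kept, 21.1% higher and 19.1% lower.

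The plot of signals by pool shows these members side by side. A signal depends on the probes as well as on the transcript, so levels of different genes are not compared.

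**Figure D1:**
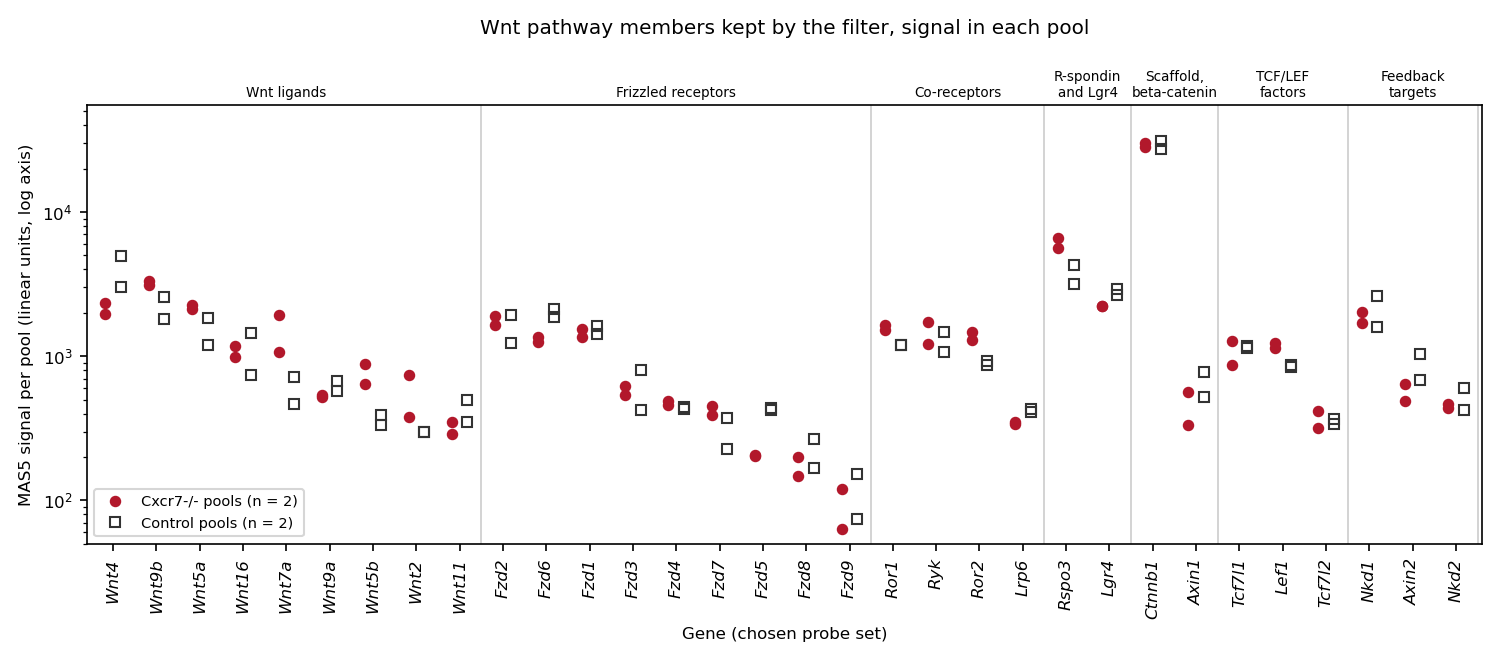
MAS5 signal (log axis) of the 32 members above the filter, with each Cxcr7-/- pool as a filled circle and each Control pool as an open square, 2 pools per genotype, ordered by role. The circles and squares separate fully for 18 members, as for Wnt5b (876 and 643 in Cxcr7-/- pools, 394 and 332 in Control pools).

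The spread between pools of 1 genotype was of the same order as the differences between genotypes. For the 32 members, the median difference between pools was 0.21 log2 between the Cxcr7-/- pools and 0.44 log2 between the Control pools. The genotype difference was larger than both of its pool differences for 14 of 32 members (43.8%), and for 26.4% of all genes kept. Those 14 were Wnt4, Wnt5b, Wnt7a, Wnt9a, Wnt9b, Fzd4, Fzd5, Fzd6, Ror1, Ror2, Lrp6, Rspo3, Lgr4 and Lef1.

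**Figure D2:**
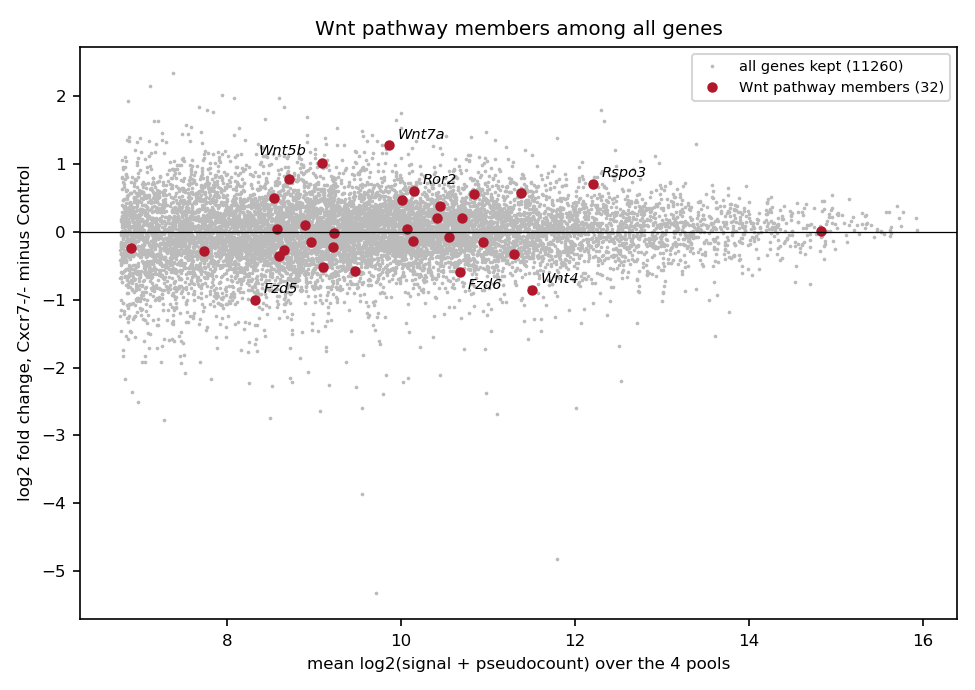
Log2 fold change (Cxcr7-/- minus Control) against mean log2(signal + 22) for all 11260 genes kept (grey) and the 32 members (red), with the 7 members at an unadjusted p under 0.05 named. The members lie within the cloud of all genes, from -1.00 for Fzd5 to 1.28 for Wnt7a.

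Of 19 Wnt ligands, 9 lay above the filter, and 6 of these had positive and 3 negative log2 fold changes. Wnt7a and Wnt5b stood furthest to the higher side and Wnt4 to the lower side. Wnt7a, a ligand known from dorsal limb patterning in mice, read 1928 and 1067 in Cxcr7-/- pools, against 465 and 716 in Control pools. Every Cxcr7-/- pool was above every Control pool, though the Cxcr7-/- pools differed from each other by 0.84 log2. The log2 fold change was 1.28 ± 0.37 (SE, 2 and 2 pools), 2.43-fold, with a limma adjusted p of 0.407, and it lay between 0.86 and 1.70 with 1 pool left out. Its other probe set above the filter read 105 and 129 in Cxcr7-/- pools, against 94.3 and 72.1 in Control pools, the same direction at 0.40 ± 0.40.

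Wnt5b, a ligand close in sequence to Wnt5a, read 876 and 643 in Cxcr7-/- pools, against 394 and 332 in Control pools. The genotypes did not overlap, at a log2 fold change of 1.01 ± 0.31, 2.02-fold (limma adjusted p = 0.419). Its probe set is of the _x_at kind, which holds probes that can also bind other transcripts. The other Wnt5b probe set, not of that kind, read 345 and 242 in Cxcr7-/- pools, against 100.3 and 143 in Control pools (1.13 ± 0.38 on the log2 scale).

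Wnt5a, which acts through Ror receptors and is needed for outflow tract septation in mice, read 2279 and 2139.97 in Cxcr7-/- pools, against 1828 and 1205 in Control pools. All 3 of its probe sets above the filter had pools that did not overlap, each higher in Cxcr7-/- pools, with log2 fold changes of 0.57 ± 0.29, 1.08 ± 0.38 and 0.45 ± 0.33. Control replicate 2 was the lowest pool for each. Without it, the log2 fold change of the chosen probe set was 0.27, and the adjusted p with all pools was 0.543.

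Wnt9b, known in zebrafish and mice as a ligand from valve endocardium, read 3118 and 3343 in Cxcr7-/- pools, against 2562 and 1816 in Control pools. Its log2 fold change was 0.58 ± 0.26 (limma adjusted p = 0.508), and 0.33 without Control replicate 2, again the lowest pool. Its direction was opposite to that of the summed endothelial, cardiomyocyte, smooth muscle and lung epithelial markers given above. It was the same as that of the macrophage sum, of the Schwann and neuronal sum and of the cell cycle sum. A link with any of these sums was not tested. Wnt2, a ligand of early heart and lung progenitors, read 740.3 and 376 in Cxcr7-/- pools, against 296 and 297 in Control pools. Cxcr7-/- replicate 1 was high, and without it the log2 fold change of 0.79 ± 0.38 was 0.32.

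Wnt4, a ligand known from kidney and female reproductive tract development, was the ligand furthest to the lower side. It read 2337 and 1969.8 in Cxcr7-/- pools, against 3028 and 4979.6 in Control pools, without overlap. The log2 fold change was -0.85 ± 0.30, or 1.80-fold lower (limma adjusted p = 0.450), and its other probe set read 1307 and 1224 in Cxcr7-/- pools, against 1724 and 1995 in Control pools (-0.54 ± 0.25). Control replicate 2 was the highest pool in both probe sets, as it was for the summed cardiomyocyte, endothelial, smooth muscle and lung markers. Leaving out Control replicate 2 gave -0.49. Without Control replicate 1 it was -1.21 at an adjusted p of 0.0381, in a fit that called 2.99% of all probe sets. The fit without Cxcr7-/- replicate 2 called 0.0355% of probe sets and no member, and those without Cxcr7-/- replicate 1 or Control replicate 2 called 0%.

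Wnt9a, a ligand of joint formation, read 525 and 539.8 in Cxcr7-/- pools, against 674 and 576 in Control pools. Its log2 fold change was -0.22 ± 0.29, smaller than its SE, from -0.33 to -0.11 with 1 pool left out and -0.08 after median centring. Wnt11, which takes part in outflow tract morphogenesis in mice, read 352 and 289.6 in Cxcr7-/- pools, against 349.5 and 493 in Control pools, with overlap (-0.36 ± 0.33, from -0.59 to -0.12 with 1 pool left out). Wnt16, known from cortical bone, read 1168 and 986 in the Cxcr7-/- pools, inside the 1442 and 742 of the Control pools (0.05 ± 0.36).

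The other 10 ligands (Wnt1, Wnt2b, Wnt3, Wnt3a, Wnt6, Wnt7b, Wnt8a, Wnt8b, Wnt10a and Wnt10b) were below the filter, which lay at a signal of about 87.4. Over those and the 4 other dim members (Fzd10, Lrp5, Rspo1 and Rspo2), signals ran from 1.21 to 153. At such signals the background subtraction of MAS5 leaves large relative errors. Wnt6, a ligand of epithelia, read 6.81 and 80.0 in Cxcr7-/- pools, against 124 and 113 in Control pools. Wnt3 read 1.21 and 3.16 in Cxcr7-/- pools, against 44.0 and 16.0 in Control pools. Of the 14 dim members, 3 had separate pools on the higher and 5 on the lower side in Cxcr7-/-, beside 13.8% and 18.7% of the 6933 genes below the filter. In the fit without a filter none passed (Wnt3 had the smallest adjusted p, 0.626).

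The promoter windows of the ligands that differed most between genotypes are shown as the sequence context of these genes, from 250 bases before to 50 bases after a RefSeq transcription start (build GRCm38.p6). Wnt7a lies at chr6:91411304-91411603 on the minus strand, Wnt5b at chr6:119449337-119449636 on the minus strand and Wnt4 at chr4:137277385-137277684 on the plus strand. Capitals mark a core motif of TCF/LEF factors, searched on both strands as CTTTGNN with A or T at each N, and a window with overlapping matches counts once. A match was found in 16.9% of all 32851 windows of this length in the table and in 6 of 41 windows (14.6%) of the 33 members listed there. Wnt5b has several annotated starts, and the window shown was picked because it is the only 1 with a match. Its windows at chr6:119544298-119544597 and chr6:119467162-119467461 had none, and neither had the windows of Wnt7a and Wnt4. A match describes letters, not a binding site.
Wnt7a: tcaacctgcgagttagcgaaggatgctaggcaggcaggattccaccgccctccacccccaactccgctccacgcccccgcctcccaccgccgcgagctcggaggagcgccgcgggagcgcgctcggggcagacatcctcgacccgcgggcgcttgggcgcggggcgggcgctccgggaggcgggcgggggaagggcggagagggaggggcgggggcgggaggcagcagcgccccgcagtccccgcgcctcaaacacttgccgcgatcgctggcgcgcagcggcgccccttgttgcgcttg
Wnt5b: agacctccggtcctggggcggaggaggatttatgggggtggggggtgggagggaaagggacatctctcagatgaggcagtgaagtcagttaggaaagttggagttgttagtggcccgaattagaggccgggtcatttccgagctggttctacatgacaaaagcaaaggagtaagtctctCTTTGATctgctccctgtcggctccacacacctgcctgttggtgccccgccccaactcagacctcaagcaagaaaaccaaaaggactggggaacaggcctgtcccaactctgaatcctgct
Wnt4: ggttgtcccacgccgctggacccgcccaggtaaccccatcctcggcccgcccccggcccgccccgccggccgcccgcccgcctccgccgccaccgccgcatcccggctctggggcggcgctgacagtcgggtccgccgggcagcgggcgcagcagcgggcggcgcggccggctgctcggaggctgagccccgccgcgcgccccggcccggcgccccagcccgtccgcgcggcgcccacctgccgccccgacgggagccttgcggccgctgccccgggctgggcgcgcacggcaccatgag

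Of 10 Frizzled receptors, 9 lay above the filter, 3 with positive and 6 with negative log2 fold changes. Fzd5, a receptor needed for yolk sac blood vessels in mice, stood furthest from 0. It read 203 and 207 in Cxcr7-/- pools, against 438 and 426 in Control pools, so pools of 1 genotype were close to each other and the genotypes lay far apart. The log2 fold change was -1.00 ± 0.31, or 2.00-fold lower (limma adjusted p = 0.432), and it stayed between -1.02 and -0.98 with any 1 pool left out.

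The promoter window of Fzd5, at chr1:64737701-64738000 on the minus strand, is shown because Fzd5 was the receptor with the largest difference, and it had no match to the motif.
Fzd5: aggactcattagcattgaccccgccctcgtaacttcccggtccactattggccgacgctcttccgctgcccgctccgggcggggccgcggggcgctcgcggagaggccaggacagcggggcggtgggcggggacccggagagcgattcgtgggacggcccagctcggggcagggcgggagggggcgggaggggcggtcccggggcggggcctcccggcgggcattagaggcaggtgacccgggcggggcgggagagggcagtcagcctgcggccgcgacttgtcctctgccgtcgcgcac

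Fzd6, a receptor of planar polarity in skin and hair of mice, read 1366 and 1252 in Cxcr7-/- pools, against 2113 and 1865 in Control pools. Its difference was -0.59 ± 0.25 (limma adjusted p = 0.484), from -0.68 to -0.50 with 1 pool left out. Both Fzd5 and Fzd6 were lower in the Cxcr7-/- pools, as were the summed endothelial, cardiomyocyte, smooth muscle and lung epithelial markers. The summed macrophage markers, the summed Schwann and neuronal markers and the summed cell cycle genes were higher. A link with any of these sums was not tested.

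Fzd7, a receptor with roles in stem cells and early embryos, read 454 and 392 in Cxcr7-/- pools, against 229 and 371 in Control pools. The higher Control pool was close to the lower Cxcr7-/- pool, and the log2 fold change of 0.50 ± 0.35 was 0.18 at the lowest with 1 pool left out. Fzd4, the receptor of retinal blood vessels that also binds Norrin, read 460.3 and 487 in Cxcr7-/- pools, against 447 and 428 in Control pools. These pools did not overlap, but the difference of 0.11 ± 0.29 was below its SE and the other Fzd4 probe set was at -0.22 ± 0.31.

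The genotypes overlapped for the remaining Frizzled genes above the filter. Fzd2 read 1908 and 1643 in Cxcr7-/- pools, against 1916 and 1233 in Control pools (0.20 ± 0.30), and Fzd1 read 1539 and 1348 in Cxcr7-/- pools, against 1423 and 1609 in Control pools (-0.07 ± 0.26, and 0.07 after median centring). Fzd3, Fzd8 and Fzd9 had log2 fold changes of -0.01 ± 0.36, -0.27 ± 0.38 and -0.24 ± 0.48. That of Fzd3 was 0.13 after median centring and 0.01 after quantile normalization. The 95% interval of the Fzd1 difference was -0.66 to 0.52. Larger differences also failed the adjusted test with these pools, as that of Ackr3 did.

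The plot of log2 fold changes sets each member beside its other probe sets.

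**Figure D3:**
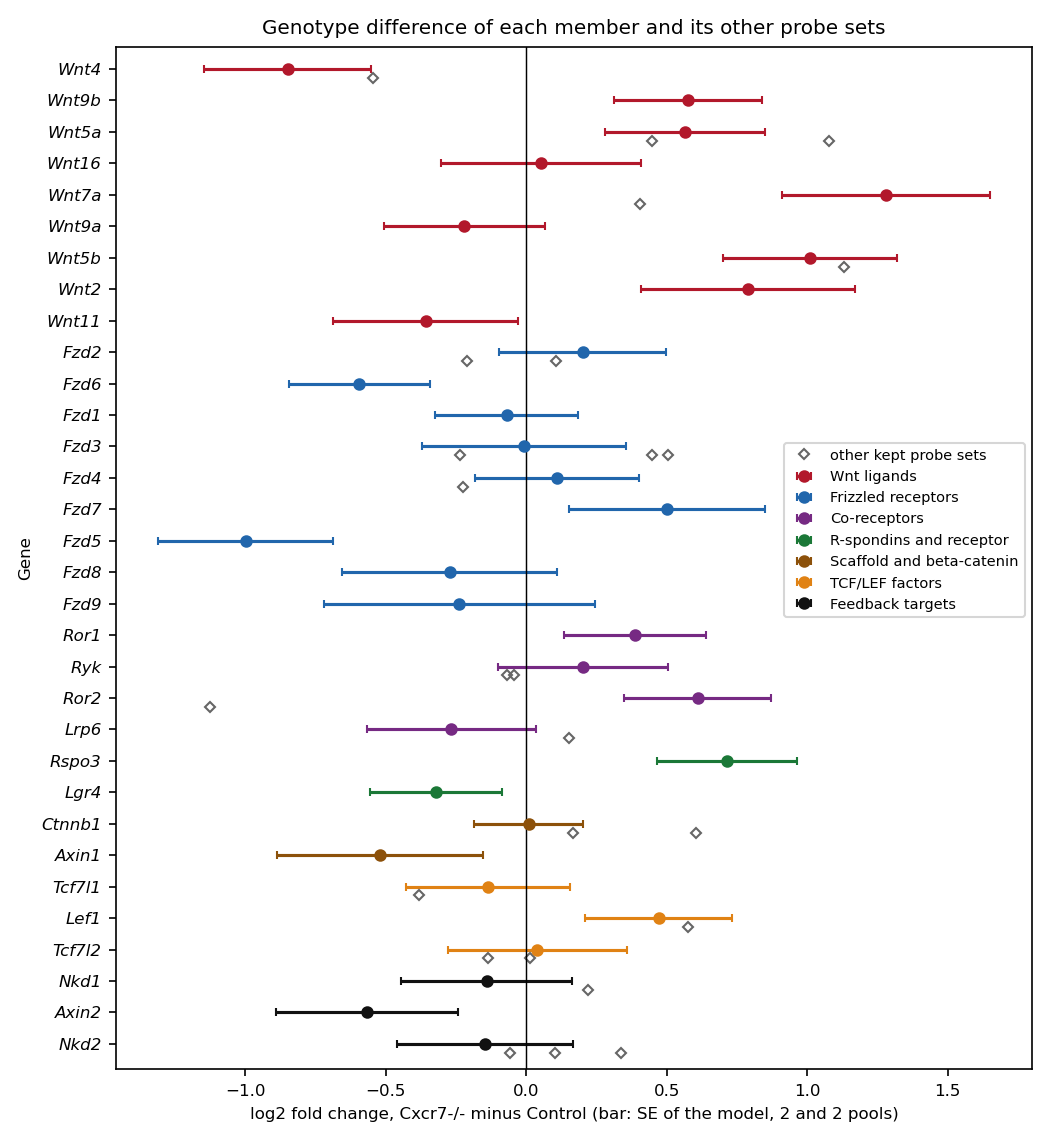
Log2 fold change (Cxcr7-/- minus Control) of each of the 32 members above the filter, as points with the SE of the model as bars (2 and 2 pools), coloured by role; open diamonds are other probe sets of the same gene above the filter. Diamonds lie near the point for Wnt5b, and on the opposite side for Ror2 (0.61 for the chosen probe set, -1.13 for the other).

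Among the co-receptors, Ror2 and Ror1, receptors of Wnt5a, were on the higher side in the chosen probe sets. Ror2 read 1476 and 1294 in Cxcr7-/- pools, against 930.2 and 866 in Control pools (0.61 ± 0.26, limma adjusted p = 0.489), without overlap. Its other probe set above the filter went the other way, with 78.0 and 51.8 in Cxcr7-/- pools, against 165 and 165 in Control pools (-1.13 ± 0.40). The probe sets of Ror2 therefore disagreed in direction, and no direction is given for the gene. Ror1 read 1638 and 1507 in Cxcr7-/- pools, against 1191 and 1201 in Control pools (0.39 ± 0.25, limma adjusted p = 0.642).

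Lrp6, a co-receptor of the beta-catenin branch, read 341 and 349 in Cxcr7-/- pools, against 411 and 428 in Control pools. Its log2 fold change of -0.27 ± 0.30 was within its SE, and its other probe set above the filter was at 0.15 ± 0.39. Ryk, a Wnt receptor with an inactive kinase domain, read 1209 and 1729 in Cxcr7-/- pools, against 1072 and 1466 in Control pools, with overlap (0.20 ± 0.30). Lrp5 was dim, at 65.6 and 50.9 in Cxcr7-/- pools, against 48.0 and 17.9 in Control pools.

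Rspo3, the R-spondin required for placental and coronary vessels in mice, read 6570 and 5596 in Cxcr7-/- pools, against 4275 and 3174 in Control pools. Every Cxcr7-/- pool was above every Control pool, and the log2 fold change was 0.72 ± 0.25, 1.64-fold (limma adjusted p = 0.450). It ranged from 0.50 without Control replicate 2 to 0.93 without Control replicate 1. Lgr4, the R-spondin receptor, was on the opposite side. It read 2221 and 2237 in Cxcr7-/- pools, against 2655 and 2931 in Control pools (-0.32 ± 0.24, limma adjusted p = 0.679). Rspo1, at 152 and 45.6 in Cxcr7-/- pools, against 153 and 29.1 in Control pools, was dim and differed more within genotypes than between them. Rspo2 read 55.5 and 25.9 in Cxcr7-/- pools, against 104 and 97.0 in Control pools, also below the filter.

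Of the intracellular members, Ctnnb1, which encodes beta-catenin, read 30233 and 28189 in Cxcr7-/- pools, against 30983 and 27161 in Control pools. The log2 fold change was 0.01 ± 0.19, with a 95% interval of -0.44 to 0.46, and -0.02 after quantile normalization. Another Ctnnb1 probe set read 1182 and 1176 in Cxcr7-/- pools, against 784 and 754 in Control pools, without overlap (0.60 ± 0.26). The third read 328 and 221 in Cxcr7-/- pools, against 247 and 229 in Control pools (0.17 ± 0.35). RNA levels do not show the amount of beta-catenin protein, which the pathway controls by degradation. Axin1, the scaffold of beta-catenin degradation, read 569 and 335 in Cxcr7-/- pools, against 519.7 and 779.97 in Control pools, with overlap (-0.52 ± 0.37, from -0.88 to -0.16 with 1 pool left out).

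Among TCF/LEF factors, Lef1, the partner of beta-catenin that is itself a reported target, read 1146 and 1239.5 in Cxcr7-/- pools, against 864 and 843 in Control pools. Its log2 fold change was 0.47 ± 0.26 (limma adjusted p = 0.587), from 0.42 to 0.53 with 1 pool left out, and the other Lef1 probe set, whose pools overlapped, was at 0.58 ± 0.59. Tcf7l1, known mainly as a repressor, read 1279 and 866 in Cxcr7-/- pools, against 1148 and 1172 in Control pools (-0.14 ± 0.29, and 0.00 after median centring). Tcf7l2 read 418 and 317 in Cxcr7-/- pools, against 340.1 and 368 in Control pools (0.04 ± 0.32), with overlap.

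The feedback targets did not share the sign of Lef1 in their chosen probe sets. Axin2, a scaffold gene induced by beta-catenin in many tissues and widely used as a readout of the pathway, read 492 and 643 in Cxcr7-/- pools, against 688 and 1036 in Control pools. The pools did not overlap, yet the lower Control pool was close to the higher Cxcr7-/- pool, and the log2 fold change was -0.57 ± 0.32 (95% interval -1.32 to 0.18, limma adjusted p = 0.599). Control replicate 2 was the highest pool, as for Wnt4, and without it the log2 fold change was -0.28. Nkd1, which binds Dishevelled and dampens the pathway, read 2027 and 1701 in Cxcr7-/- pools, against 1605 and 2614 in Control pools (-0.14 ± 0.30). Nkd2, its relative, read 439.6 and 469 in Cxcr7-/- pools, against 425 and 601 in Control pools (-0.15 ± 0.31). In the chosen probe set of each Nkd gene the Cxcr7-/- pools lay between the Control pools. The other Nkd1 probe set above the filter was at 0.22 ± 0.32. Those of Nkd2 were at -0.06 ± 0.34, 0.34 ± 0.34 and 0.10 ± 0.36, and the genotypes overlapped in all of them.

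The promoter window of Axin2, at chr11:108920099-108920398 on the plus strand, is shown as that of the pathway's usual target gene. It had no match to the motif in these 300 bases, which says nothing of sites outside them.
Axin2: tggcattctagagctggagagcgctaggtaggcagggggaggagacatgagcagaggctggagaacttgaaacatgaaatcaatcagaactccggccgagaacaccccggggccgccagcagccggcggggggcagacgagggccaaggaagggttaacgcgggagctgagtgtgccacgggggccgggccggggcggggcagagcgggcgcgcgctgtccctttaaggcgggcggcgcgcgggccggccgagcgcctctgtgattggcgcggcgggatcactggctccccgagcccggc

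Of the 32 members above the filter, 16 had further probe sets above it, 25 in all. Of these 25, 13 had the same sign as the chosen probe set. For 9 genes at least 1 probe set had the opposite sign (Fzd2, Fzd3, Fzd4, Lrp6, Nkd1, Nkd2, Ror2, Ryk and Tcf7l2). For Wnt4, Wnt5a, Wnt5b, Wnt7a, Lef1, Tcf7l1 and Ctnnb1 all had the same sign.

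**Figure D4:**
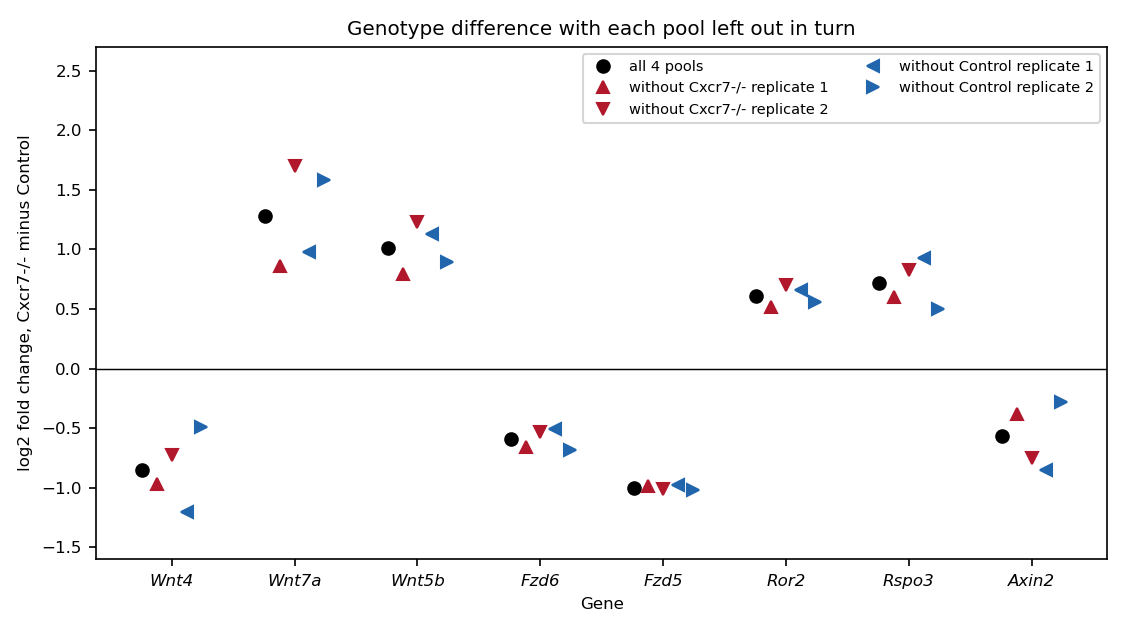
Log2 fold change (Cxcr7-/- minus Control) of the 7 members at an unadjusted p under 0.05 and of Axin2, with all 4 pools (black) and with each pool left out in turn (red triangles for Cxcr7-/- pools, blue for Control pools). No sign changed for these genes, Fzd5 stayed between -1.02 and -0.98, and Wnt4 ranged from -1.21 to -0.49.

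Other genes of the pathway came from lists of 96 genes in all, of which 90 were matched to a probe set and 69 lay above the filter. None passed the adjusted test, and 9 (13%) had an unadjusted limma p under 0.05, 3 higher and 6 lower in Cxcr7-/- pools, beside 7.96% of all genes kept. Their median log2 fold change was -0.01.

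Upstream of the receptors, Wls, the carrier of Wnt proteins to the cell surface, read 4676 and 4269.96 in Cxcr7-/- pools, against 3506 and 2904 in Control pools (0.48 ± 0.24). Porcn, the enzyme that attaches the lipid to Wnt proteins, read 129 and 149 in Cxcr7-/- pools, against 177 and 177 in Control pools (-0.31 ± 0.36). Among secreted inhibitors, 17 of 18 were matched and 12 lay above the filter. Wif1 had a log2 fold change of 1.81 ± 0.36, Sfrp2 of -1.09 ± 0.31 and Sost of -1.26 ± 0.52. These 3 of 12 had an unadjusted limma p under 0.05, beside 7.96% of all genes kept.

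Inside the cell, 16 genes of the Dishevelled and destruction complex list lay above the filter. Of these, 1 had an unadjusted limma p under 0.05, beside 7.96% of all genes kept. It was Dvl1, a Dishevelled gene, which read 3160 and 3571 in Cxcr7-/- pools, against 5571 and 5458 in Control pools (-0.71 ± 0.22, limma adjusted p = 0.433). Dact1, a Dishevelled-binding protein gene, was at 0.68 ± 0.35 and Btrc, a subunit of the ligase that marks beta-catenin for degradation, at 0.58 ± 0.35. Of 12 nuclear cofactors above the filter, 3 were lower at an unadjusted limma p under 0.05 and 0 higher. Over all genes kept, 4.03% were lower and 3.93% higher at such a p. The Groucho-type corepressor gene Tle1 read 1369 and 1366 in Cxcr7-/- pools, against 2353 and 2327 in Control pools (-0.77 ± 0.24). Its relative Tle3 read 516 and 504 in Cxcr7-/- pools, against 843 and 864 in Control pools (-0.72 ± 0.28), while Tle4 was at 0.51 ± 0.27. The coactivator gene Bcl9 read 56.5 and 81.9 in Cxcr7-/- pools, against 132 and 180.4 in Control pools (-0.97 ± 0.41).

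No gene of the planar polarity list (15 of 16 matched, 11 above the filter, -0.20 to 0.41 on the log2 scale) or of the R-spondin partner list (3 of 5) had an unadjusted p under 0.05. Over all genes kept that share was 7.96%. Invs, at 0.41 ± 0.34, Daam2, at 0.25 ± 0.35, and Vangl1, at -0.20 ± 0.30, had the smallest p in the polarity list. Among R-spondin partners, the ubiquitin ligase genes Znrf3 and Rnf43, which remove Frizzled receptors, were at 0.51 ± 0.31 and -0.23 ± 0.41, and Lgr5, another R-spondin receptor, was at -0.21 ± 0.38.

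Among 18 other reported beta-catenin targets above the filter, 2 were higher at an unadjusted limma p under 0.05 and 0 lower. The shares over all genes kept were 3.93% higher and 4.03% lower. Tnfrsf19, a TNF receptor family member, read 3265 and 1973 in Cxcr7-/- pools, against 1511 and 950.1 in Control pools (1.07 ± 0.35), and Cd44, the hyaluronan receptor, read 7709 and 7100.3 in Cxcr7-/- pools, against 4614 and 5148 in Control pools (0.60 ± 0.22). Cd44 is also expressed by macrophages, whose summed markers were higher in the Cxcr7-/- pools, and a link was not tested. Notum, a secreted enzyme that removes the lipid of Wnt proteins, read 197 and 286 in Cxcr7-/- pools, against 355 and 414 in Control pools (-0.64 ± 0.34), so the targets named here lay on both sides of 0.

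**Figure D5:**
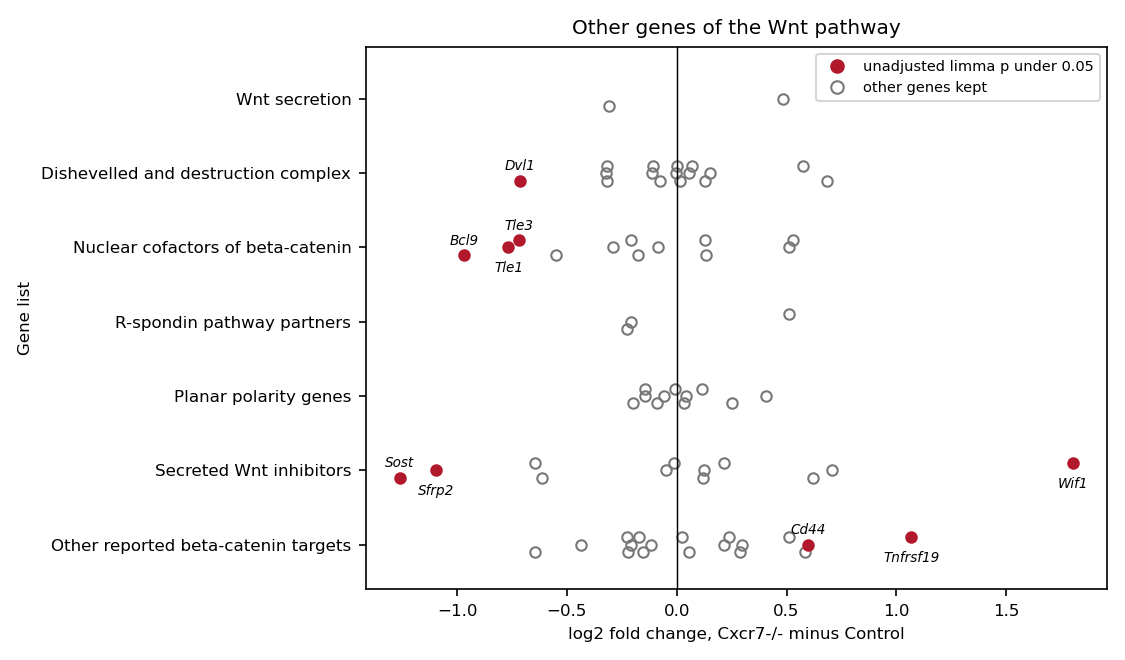
Log2 fold change (Cxcr7-/- minus Control) of the genes above the filter in 7 lists of other Wnt pathway genes, 1 point per gene, filled where the unadjusted limma p was under 0.05. Filled points are the cofactors Tle1, Tle3 and Bcl9 and the inhibitors Sfrp2 and Sost on the lower side, with Dvl1, and Wif1, Tnfrsf19 and Cd44 on the higher side.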

How the data were processed

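RNA from 4 pools of valve leaflets was measured on 1 array each. Per the submitters' processing notes, the authors used Affymetrix Expression Console and MAS5, and the deposited values are intensity signals on a linear scale, 1 per probe set and array; software versions, detection calls and the genome build were not given in the sources used here. MAS5 subtracts a background and scales each array (the trimmed mean over the middle 96% was 500.003 on every array), so each gene is measured relative to its array's total signal. Of 45101 probe sets, 64 AFFX controls were left out. Values were taken as log2(signal + 22), 22 being the rounded 25th percentile. Probe sets with a mean above the median were kept (22518). Genes came from an annotation table of the array: 34945 probe sets had 1 symbol, 932 several and 9160 none.

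The genotype comparison used limma 3.58.1 under R 4.3.3 (eBayes on lmFit with an intensity trend, two-sided, Benjamini-Hochberg adjustment over all probe sets kept, 2 residual and 5.85 prior degrees of freedom). The fit was tested on simulated data. An exact permutation test of 2 against 2 pools cannot go below 0.333, so none was used. The members, lists, naming rule and tests were chosen with earlier results of these data known. Per-pool signals were given for members above the filter whose pools did not overlap or whose unadjusted p was under 0.05, and for up to 4 members per role with the highest signal; from each other list up to 3 genes with the smallest unadjusted p were named. Tle4, Wnt3, Wnt6 and any other gene outside this rule were chosen after their values were seen. Promoter sequences are from RefSeq, build GRCm38.p6, matched by symbol. No group was large enough for a test of outlying pools. Alternatives were another pseudocount, another filter, median centring, quantile normalization, no trend, another choice of probe set, a replicate block, and each pool left out.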

Additional observations from a re-analysis of the deposited data

How the results depend on the processing

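With 2 pools per genotype the number of calls changed when single pools were left out, and the cause was not tested. The number of probe sets passing the adjusted threshold was 0 with all pools and 0 to 673 with 1 pool left out (8 without Cxcr7-/- replicate 2, 673 without Control replicate 1), and of members 0 to 1, the 1 being Wnt4. The lone pool of a genotype is then assumed to vary like the other genotype's pools. Members at an unadjusted p under 0.05 numbered 7, 0 to 9 with 1 pool left out (beside 2.62% to 20.1% of all genes), and 4 without the variance trend (Fzd5, Wnt4, Wnt5b and Wnt7a, beside 6.88% of all genes). Members with separate pools numbered 18 (beside 40.2% of all genes), 16 after median centring (beside 39.9%), and 22 to 28 with 1 pool left out (beside 64.3% to 78.2%), where fewer pools overlap less. Median centring over all probe sets added 0.14 to every log2 fold change, and Wnt4 (-0.71) and Fzd6 (-0.46) then missed an unadjusted p of 0.05. Quantile normalization left 6 members at such a p (beside 7.85% of all genes).

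Of 32 members, 20 kept their sign in every setting that tested them (up to 14 each). After median centring Fzd1 was at 0.0678, Fzd3 at 0.13 and Tcf7l1 at 0.00048, and after quantile normalization Fzd3 was at 0.0123 and Ctnnb1 at -0.0235. With 1 pool left out, the log2 fold change ran from -0.42 to 0.52 for Wnt16, -0.11 to 0.51 for Fzd2, -0.16 to 0.0241 for Fzd1, -0.45 to 0.44 for Fzd3, -0.57 to 0.0253 for Fzd8 and -0.67 to 0.19 for Fzd9. It ran from -0.0511 to 0.46 for Ryk, -0.0858 to 0.10 for Ctnnb1, -0.41 to 0.14 for Tcf7l1, -0.15 to 0.23 for Tcf7l2, -0.49 to 0.21 for Nkd1 and -0.39 to 0.0917 for Nkd2.

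Same-numbered pools did not deviate together (r = -0.26 across probe sets) and no label pairs them. With the number as a replicate block, 0 probe sets and 0 members passed, and 5 members had an unadjusted p under 0.05 (beside 5.63% of all genes). A crossed replicate block, chosen after seeing the data, gave 5 probe sets, 0 members and 9 members at an unadjusted p under 0.05 (beside 11.4% of all genes).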
